A study of Arabidopsis thaliana with 16 samples.

Results

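Root and shoot of Col-0, the wild-type Arabidopsis accession, were compared after 4 h of ethylene gas, and the comparison was set beside the same tissues kept in air. The libraries are those of Col-0 roots and Col-0 shoots in ethylene, 4 of the 16 of the series, and they were picked by their labels alone. The seedlings were grown in the dark for 3 days and then given hydrocarbon-free air with 10 ppm ethylene, or the same air without it, for 4 h. The groups used are Col-0 root in ethylene, Col-0 shoot in ethylene, Col-0 root in air and Col-0 shoot in air, with the same tissues and gases of the *cbp20* mutant read as a repeat in other libraries. Every group had 2 libraries of poly(A) RNA, and all plants were dark-grown seedlings of this age. Expression was given as FPKM, the number of fragments scaled to transcript length and to the mapped fragments of the library, with 1 pooled value per group. No value per library was at hand, so that no SD and no test of root against shoot could be made, and every difference below is a description. Of 35814 table rows, 15319 named rows with at least 5 FPKM in 1 or more of the Col-0 groups are described.

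A seedling grown in the dark puts its growth into the hypocotyl and keeps a closed apical hook, and ethylene shortens hypocotyl and root, thickens the hypocotyl and tightens the hook. The gas is sensed by receptors at the endoplasmic reticulum that include ETR1, ETR2, ERS1, ERS2 and EIN4. The kinase CTR1 holds EIN2 in check until the gas is bound, and EIN2 then lets the transcription factors EIN3 and EIL1 gather. In roots ethylene is also known for promoting root hairs, the tubular outgrowths of epidermal cells. The shoot of such a seedling is mostly hypocotyl, hook and cotyledons, and shares some tissues with the root, such as an endodermis.

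Tissue bias is the log2 ratio of root over shoot of FPKM + 1, less the median of that ratio over all named rows with at least 1 FPKM in both tissues, since the root and shoot tables had been normalized separately. That median was 0.015 in ethylene and 0.038 in air. The shift is the bias in ethylene minus the bias in air, so that a positive shift points toward the root. A row was called biased at 2-fold. A bias was called made when it was past 2-fold in ethylene and under it in air, erased when the order was turned round, and reversed when it was past 2-fold toward opposite tissues, each with a shift of at least 2-fold. A bias past 2-fold in the same direction in both gases was called widened or narrowed when the shift was at least 2-fold.

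In ethylene 2989 of 15319 rows were root-biased (19.5%), against 2348 in air (15.3%). Shoot bias was found for 2911 rows in ethylene (19.0%) and 2854 in air (18.6%). In *cbp20* the shares were 18.7% root-biased and 16.6% shoot-biased in ethylene, against 14.9% and 16.5% in air. Most tissue bias was therefore carried through the treatment. Of the 2348 rows root-biased in air, 1939 were so in ethylene as well, and of the 2854 shoot-biased rows 2214 were.

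The shift was at least 2-fold toward the root for 1554 rows (10.1%) and toward the shoot for 901 (5.88%). Root bias was made for 465 rows (3.04%) and widened for 449 (2.93%), while it was erased for 163 (1.06%) and narrowed for 85 (0.555%). Shoot bias was made for 278 rows (1.81%) and widened for 177 (1.16%). It was erased for 271 (1.77%) and narrowed for 142 (0.927%). A bias was reversed for 74 rows (0.483%).

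**Figure D1:**
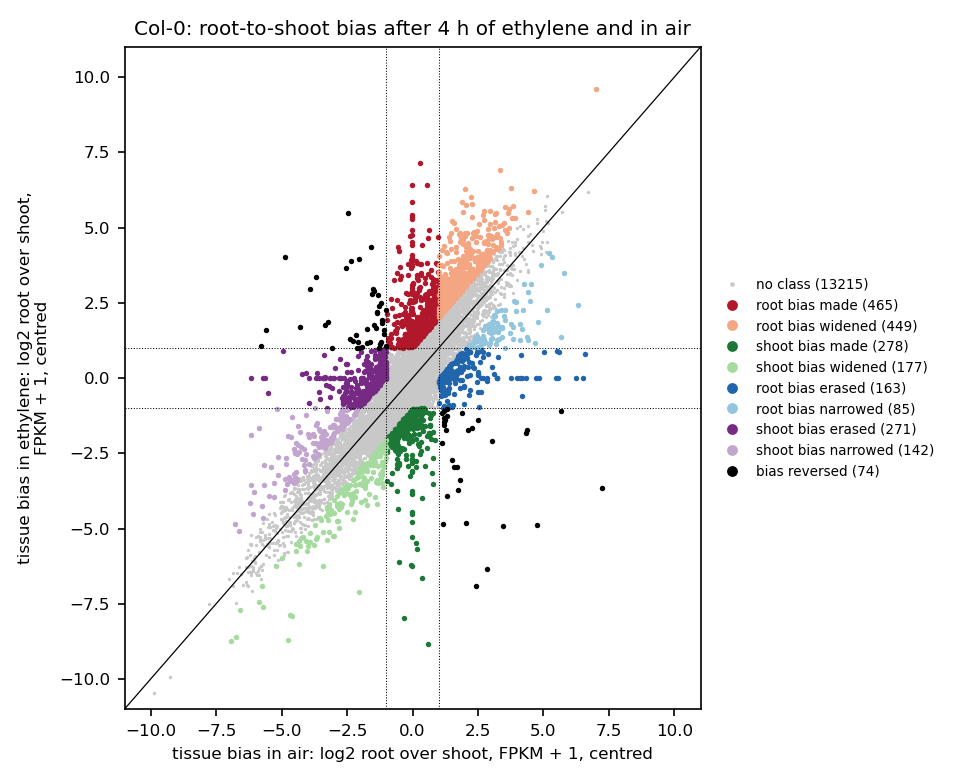
Tissue bias of each described row in ethylene (vertical axis) against air (horizontal axis), both as centred log2 of root over shoot FPKM + 1, in Col-0. Dotted lines mark 2-fold, the solid line marks equal bias, and colours mark the classes, of which root bias made is the largest with 465 rows.

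The shoot carried more of these shifts than the root. Among the 1554 rows shifted toward the root, 878 were at least 1.5-fold lower in shoots in ethylene without being 1.5-fold higher in roots. Another 408 were at least 1.5-fold higher in roots without being 1.5-fold lower in shoots, and 237 did both. Among the 901 rows shifted toward the shoot, 426 were so much higher in shoots without being lower in roots. A further 317 were lower in roots without being higher in shoots, and 142 did both. Rows in which both tissues moved the same way by unequal amounts are included in the counts for a single tissue. Over all described rows 10.9% were at least 1.5-fold higher and 11.9% lower in ethylene in roots, and in shoots 11.2% were higher and 17.9% lower. In whole tissue, fewer cells of a type and less RNA per cell cannot be told apart.

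The repeat in *cbp20* sets how far single rows can be read. Of the rows shifted at least 2-fold toward the root in Col-0, 32.0% were shifted so in *cbp20* too, against 8.38% of all rows. Of those shifted toward the shoot, 22.9% were, against 5.08% of all rows. By class, the same 2-fold shift was found in *cbp20* for 136 of 465 rows with root bias made, 75 of 278 with shoot bias made, 29 of 163 with root bias erased, 79 of 271 with shoot bias erased and 27 of 74 reversed rows. The share grew with the level, being 24.2% for rows of 5 to 10 FPKM in their highest Col-0 group and 36.5% for rows of 200 FPKM or more. Agreement in direction alone was wider, at 72.7% over all rows shifted 2-fold. The mutant and Col-0 differ in genotype as well as in library, so a shift absent in *cbp20* can belong to either.

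The tissues were as labelled by their markers. The 19 described rows of photosynthesis genes were all shoot-biased in both gases, and their summed FPKM in Col-0 roots was 1.58% of that in shoots in ethylene and 1.84% in air. The 10 rows of root nutrient uptake genes were all root-biased, and their sum in shoots was 13.2% of that in roots in ethylene and 12.8% in air. The residual level of each tissue's markers in the other thus differed little between the gases. *CBP20*, the gene mutated in *cbp20*, was between 0.509 and 2.14 FPKM in the mutant's groups and between 23.8 and 35.8 FPKM in those of Col-0. All root libraries carry lane number 6, and each shoot group has a library of lane 5 and a library of lane 6, so that lane and tissue overlap in part and its effect on the bias was not tested, while both gases have the same lanes within a tissue.

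Among protein-coding rows with at least 1 FPKM in both tissues, the strongest shoot bias in ethylene belonged to chloroplast genes. *LHB1B2*, a light-harvesting protein of photosystem II, was at 1.63 FPKM in roots and 1104 FPKM in shoots in ethylene, against 18.4 and 2316 FPKM in air. *CAB1*, of the same protein family, was at 27.9 and 6031 FPKM in ethylene and 65.5 and 6192 FPKM in air. *CA2*, a carbonic anhydrase, *PSAE-1*, a photosystem I subunit, and *NPQ4*, which dissipates excess light, had biases of -7.47, -7.43 and -6.92 in ethylene and -6.72, -5.86 and -5.75 in air. The photosynthesis list as a whole barely moved, with a median bias of -6.06 in ethylene and -6.10 in air.

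At the root end AT4G12545, a lipid-transfer-type protein, had the highest bias of such rows, at 1511 FPKM in roots and 19.3 FPKM in shoots in ethylene, against 2239 and 86.6 FPKM in air. *MRN1*, marneral synthase of root triterpene synthesis, had a bias of 5.32 in ethylene and 3.78 in air, with lower levels in ethylene in both tissues (221 FPKM in roots and 4.51 FPKM in shoots, against 675 and 46.8 FPKM in air). *SDR4*, a short-chain dehydrogenase-type protein, was likewise lower in both tissues, at 434 and 7.82 FPKM in ethylene and 1472 and 111 FPKM in air. The row that joins the iron transporters *IRT2* and *IRT1* had a bias of 5.51 in ethylene and 5.72 in air. The root hair genes *ADF8*, *PRP1* and *EXPA18* and the arabinogalactan protein gene *FLA6* had biases between 5.54 and 5.79 in ethylene and are described further on. When rows at or near 0 FPKM in a tissue were counted as well, the extremes were mostly uncharacterized or noncoding rows. Toward the root these were AT3G51642 (790.1 FPKM in roots and 0 FPKM in shoots in ethylene), AT3G14475, AT5G19800, AT4G31441, AT5G10336 and AT3G19663, all listed at 0 FPKM in shoots in ethylene. AT5G19800, a hydroxyproline-rich glycoprotein, was at 119 FPKM in roots in ethylene, against 39.1 FPKM in roots and 2.83 FPKM in shoots in air. Toward the shoot they were AT2G07748 (0 FPKM in roots and 1392 FPKM in shoots in ethylene), AT2G20722, AT2G05765, AT3G22121 and *LHB1B2*. The B-box factor *bbx23* was listed at 0 FPKM in Col-0 roots in both gases and at 386 FPKM in shoots in ethylene, against 103 FPKM in air.

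Root hair effectors, the genes that build and extend the hair, were the list with the highest root bias in ethylene. A root hair forms when the bHLH factors RHD6 and RSL4 switch on genes for wall proteins, wall-loosening expansins and xyloglucan-cutting XTH enzymes, peroxidases and the actin machinery. The genes of this group are known to share a short promoter motif, the root hair element, bound by RSL4 and its relatives. The bases before the RefSeq start of 6 of them are shown by example, each with a match within 150 bases of the start. Each match to the motif is in capitals, on either strand (5′ to 3′ in the direction of the gene, 150 bases, RefSeq, TAIR10.1).
PRP1: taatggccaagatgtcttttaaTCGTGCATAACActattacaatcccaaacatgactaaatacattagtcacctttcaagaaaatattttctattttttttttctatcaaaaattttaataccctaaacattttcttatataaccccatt
LRX1: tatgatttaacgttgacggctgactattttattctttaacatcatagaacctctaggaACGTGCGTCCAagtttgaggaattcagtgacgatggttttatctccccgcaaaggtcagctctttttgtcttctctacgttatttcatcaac
EXPA7: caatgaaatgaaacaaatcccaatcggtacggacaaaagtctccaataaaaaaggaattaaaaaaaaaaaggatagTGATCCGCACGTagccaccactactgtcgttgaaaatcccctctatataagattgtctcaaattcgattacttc
RHS18: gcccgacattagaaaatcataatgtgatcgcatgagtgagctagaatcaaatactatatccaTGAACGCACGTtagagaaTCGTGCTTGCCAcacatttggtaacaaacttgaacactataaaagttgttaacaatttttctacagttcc
SHV2: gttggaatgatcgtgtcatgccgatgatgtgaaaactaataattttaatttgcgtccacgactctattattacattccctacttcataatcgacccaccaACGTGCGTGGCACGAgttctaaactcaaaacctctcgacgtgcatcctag
G3Pp2: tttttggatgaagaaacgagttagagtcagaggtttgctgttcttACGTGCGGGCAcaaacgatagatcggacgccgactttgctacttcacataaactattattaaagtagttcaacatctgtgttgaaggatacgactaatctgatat

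The windows lie at chr1:20504751-20504900 for *PRP1* (plus strand), chr1:4069842-4069991 for *LRX1* (plus strand), chr1:4276355-4276504 for *EXPA7* (plus strand), chr5:7426160-7426309 for *RHS18* (plus strand), chr5:19974531-19974680 for *SHV2* (minus strand) and chr4:12920592-12920741 for *G3Pp2* (plus strand). Within 250 bases before the start, the motif was found for 8 of 18 root hair effector genes (44.4%) and for 3.01% of the 27438 protein-coding genes on the nuclear chromosomes. Several of the RHS genes are known to have been picked in part by this element, so that their share is not independent of the list. Of genes with root bias widened outside this list and the extensins, 30 of 400 had it (7.50%), and of those with root bias made 12 of 422 (2.84%). None of the 6 described extensins had it. The motif can overlap the G-box CACGTG, which was in 0 of the same root hair windows and in 6.49% of all. The GCC box GCCGCC, bound by ERF factors, was in 0 of them and 1.87% of all, and the letters ATGNANCT of the EIN3 type in 0 and 12.5%. These are matches of letters in a window and not binding sites.

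*PRP1*, a proline-rich wall protein, stood at 328 FPKM in roots and 5.06 FPKM in shoots in ethylene, against 31.3 FPKM in roots and 6.61 FPKM in shoots in air. Only the root in ethylene was high, and the bias was 5.75 in ethylene and 2.05 in air. In *cbp20* the same gene had 383 and 9.11 FPKM in ethylene and 51.0 and 7.27 FPKM in air. *LRX1*, a wall protein that joins leucine-rich repeats to an extensin, was at 67.5 and 1.40 FPKM in ethylene and 14.7 and 2.103 FPKM in air, a shift of 2.52 in Col-0 that was 1.89 in *cbp20*. *ADF8*, which cuts and turns over actin filaments, combined a higher root level (174 FPKM, against 65.3 FPKM in air) with a lower shoot level (2.13 FPKM, against 12.5 FPKM in air). Its shift was 3.53 in Col-0 and 1.41 in *cbp20*, where the shoot level differed little.

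Among the expansins of root hairs, *EXPA7* was at 149 and 5.46 FPKM in ethylene and 70.8 and 5.73 FPKM in air. *EXPA18* was at 98.4 and 1.12 FPKM in ethylene and 45.7 and 4.77 FPKM in air. In both the root was higher in ethylene, and only *EXPA18* was lower in the shoot. The peroxidases *RHS18* and *RHS19* were higher in roots alone, at 135 and 412 FPKM in ethylene, against 32.4 and 101 FPKM in air. *XTH14* and the joined row of XTH12 and XTH13, xyloglucan endotransglucosylases, were at 381 and 246 FPKM in roots in ethylene, against 154 and 47.5 FPKM in air. *RHS13*, an extensin-like protein, was at 439.6 FPKM in roots and 15.9 FPKM in shoots in ethylene, against 133 and 13.0 FPKM in air, and *RHS12*, an invertase and pectin methylesterase inhibitor, shifted by 2.42. *G3Pp2*, a predicted glycerol-3-phosphate transporter, and the kinase *IRE* were at 51.7 and 6.15 FPKM in roots in ethylene, against 17.4 and 3.03 FPKM in air. *XTH26*, another endotransglucosylase, was the list's member with root bias made. It was higher in both tissues, at 77.0 FPKM in roots and 15.1 FPKM in shoots in ethylene, against 6.10 and 3.44 FPKM in air, and its bias was 2.26 in ethylene and 0.64 in air.

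In all, 14 of 17 described root hair effectors shifted at least 2-fold toward the root and 0 toward the shoot, against 10.1% and 5.88% of all rows, and 15 shifted toward the root in *cbp20*, against 8.38% of all rows. Root bias was widened for 13 of them and made for 1, against 2.93% and 3.04% of all rows. The list has 18 rows in the tables, and of those described *IRE* passed the 5 FPKM minimum only through roots in ethylene. The median bias was 4.52 in ethylene and 2.26 in air, beside 0.0093 and 0.00072 over all rows. The root side carried it, as 16, *IRE* among them, were at least 1.5-fold higher in roots, against 10.9% of all rows. Their summed FPKM was 2706 in roots and 142 in shoots in ethylene, against 779.7 and 137 in air. The members past no class were *LRX2*, which was near equal in the tissues (biases of -0.10 in ethylene and -0.55 in air), the NADPH oxidase *RHD2* (shift 0.52) and the COBRA-like protein *SHV2* (shift 0.78).

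**Figure D2:**
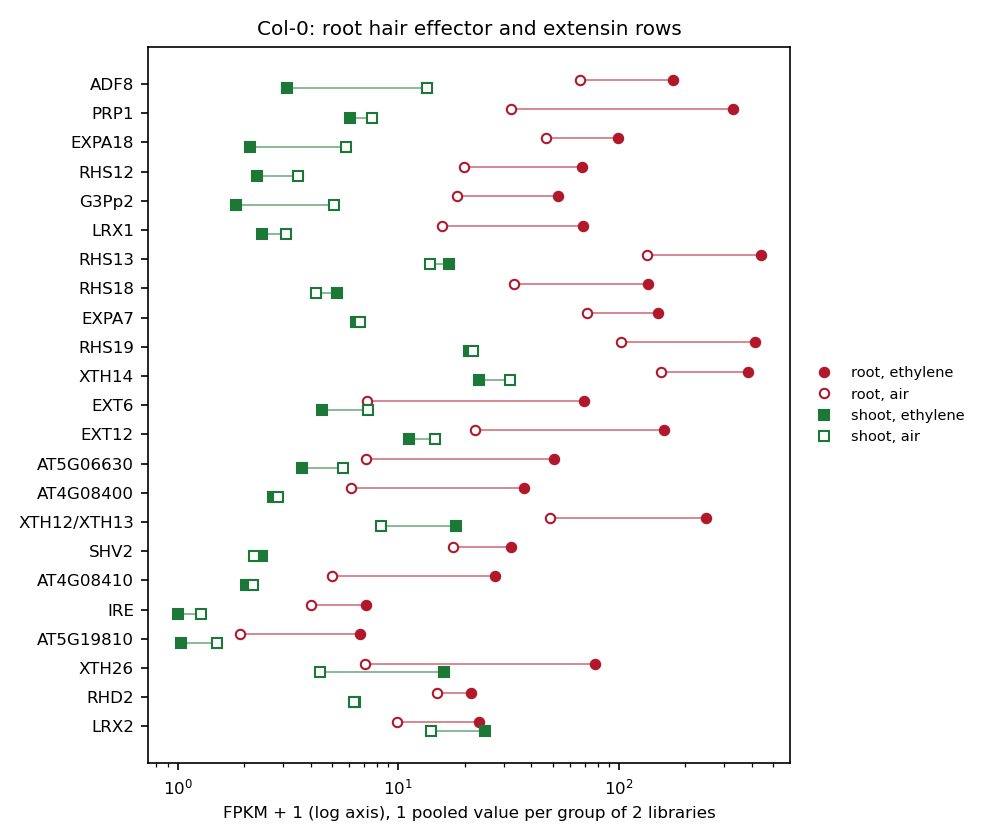
FPKM + 1 on a log axis for the 17 root hair effector rows and 6 extensin rows in Col-0, with roots as circles and shoots as squares, filled in ethylene and open in air. Each point is 1 pooled value of 2 libraries. For PRP1 the filled circle lies far right of the open circle, and the squares lie close together. IRE, AT4G08410 and AT5G19810 passed the 5 FPKM minimum only through roots in ethylene.

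Upstream of these genes the regulators moved less evenly. *RSL4* was at 43.3 FPKM in roots and 1.75 FPKM in shoots in ethylene, against 14.3 and 0.920 FPKM in air, with shifts of 1.04 in Col-0 and 0.98 in *cbp20*. *RHD6* had root bias made, at 10.8 and 2.72 FPKM in ethylene and 8.98 and 6.08 FPKM in air, and its *cbp20* shift was 0.28. *MYB66*, better known as WEREWOLF, sets the hairless cell fate in the root epidermis. It was at 2.92 and 10.7 FPKM in ethylene and 7.79 and 7.15 FPKM in air, so that its shoot bias was made, with a *cbp20* shift of -0.63. *RSL2* and *CPC* fell in no class.

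Extensins, the hydroxyproline-rich rods of the plant cell wall, were also higher in roots in ethylene. The family was chosen after its values had been seen. Of 11 tabulated extensin rows, 6 reached 5 FPKM in a Col-0 group, AT4G08410 and AT5G19810 of them only through roots in ethylene, so that the values of the described rows are given without a count over them. With no minimum on the level the median shift of the family was 2.38. *EXT6* (AT2G24980, chromosome 2, 10622453 to 10624132 in the tables) was at 68.0 FPKM in roots and 3.52 FPKM in shoots in ethylene, against 6.197 and 6.28 FPKM in air, where the tissues were level. *EXT12* was at 159 and 10.2 FPKM in ethylene and 21.3 and 13.7 FPKM in air. AT5G06630, another extensin, was at 49.9 and 2.65 FPKM in ethylene and 6.10 and 4.59 FPKM in air. AT4G08400, AT4G08410 and AT5G19810 were the others, at 36.0, 26.5 and 5.68 FPKM in roots in ethylene, against 5.13, 4.01 and 0.913 FPKM in air. Extensin genes are near-identical in their repeats, so reads may be split among them.

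Related wall proteins outside both lists were widened too and were picked after their values were seen. *HRGP1*, a hydroxyproline-rich glycoprotein, was at 282 FPKM in roots and 9.72 FPKM in shoots in ethylene, against 81.5 and 19.0 FPKM in air. *FLA6* and *AGP3*, arabinogalactan proteins of the cell surface, had shifts of 2.82 and 2.52, with 1.16 and 1.51 in *cbp20*. *MRH6*, whose loss alters root hairs, had 37.8 FPKM in roots and 0.0335 FPKM in shoots in ethylene, against 12.7 and 3.67 FPKM in air.

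Among the other genes whose root bias was made, the largest repeated shifts were partly in rows of low level. *RTFL18*, a small peptide of the ROTUNDIFOLIA kind, was listed at 38.5 FPKM in ethylene-treated roots and at 0 FPKM in the other 3 Col-0 groups, and *cbp20* had the same pattern with 28.5 FPKM. *CSLC12*, a glucan synthase of the cellulose synthase-like family, was at 17.2 FPKM in roots and 0.870 FPKM in shoots in ethylene, against 1.92 and 3.604 FPKM in air. AT4G03610, a metallo-hydrolase, was at 32.8 FPKM in roots and 1.41 FPKM in shoots in ethylene, against 17.4 and 19.2 FPKM in air, a bias made mainly by the shoot. The rule also named AT1G63600, AT2G43770 and AT1G28260, with shifts between 4.07 and 4.91, and AT3G56500, listed at 0 FPKM in shoots in ethylene.

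Laccases, the copper oxidases that polymerize lignin, leaned further to the root. Of 11 described members 6 shifted 2-fold toward the root and 0 toward the shoot, against 10.1% and 5.88% of all rows, and 3 did so toward the root in *cbp20*, against 8.38% of all rows. The family's median bias was 1.90 in ethylene and 0.91 in air. *LAC17*, which acts in lignin deposition, was at 80.1 FPKM in roots and 12.5 FPKM in shoots in ethylene, against 31.7 and 24.7 FPKM in air. *LAC7* was lower in both tissues but far more so in shoots, with 136 and 8.67 FPKM in ethylene and 184 and 39.9 FPKM in air. *LAC2*, *LAC5*, *LAC13* and the row of *LAC8* with AT5G01050 were the others in a class. The enzymes of the lignin list other than laccases stayed outside the classes, among them *PAL1* with biases of 2.14 in ethylene and 1.58 in air.

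WRKY factors, regulators of defence and senescence, were root-biased for 25 of 45 described members in ethylene and 21 in air, against 19.5% and 15.3% of all rows. Root bias was made for 5 and widened for 5, against 3.04% and 2.93% of all rows. *WRKY57* was at 17.6 FPKM in roots and 2.55 FPKM in shoots in ethylene, against 6.31 and 7.61 FPKM in air. *WRKY6* and *WRKY33* reached root bias mostly through lower shoot levels (5.64 and 3.00 FPKM in ethylene, against 18.0 and 9.41 FPKM in air), with *cbp20* shifts of 0.63 and 0.33. *WRKY26* and *WRKY29* were made as well (*cbp20* shifts 1.11 and -0.13), and *WRKY24*, *WRKY31*, *WRKY35*, *WRKY36* and *WRKY45* widened. *ABO3*, also a WRKY factor, had its root bias erased and *WRKY9* had it narrowed (*cbp20* shifts -0.41 and 0.59). *JAZ7*, a repressor of jasmonate signalling, was at 24.8 and 1.82 FPKM in ethylene and 13.4 and 7.20 FPKM in air, and all 9 described JAZ genes had a shift above 0, as did 8437 of 15319 rows in all, and *JAZ7* alone of them was past 2-fold.

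Genes known from cold and dehydration moved from shoot bias or balance toward the root. This list was chosen after values had been seen, and 7 of its 9 described rows shifted 2-fold toward the root, with 8 in *cbp20*, against 10.1% of all rows in Col-0 and 8.38% in *cbp20*. Its median bias was 0.44 in ethylene and -0.99 in air. The joined row of *KIN1* and *KIN2*, small hydrophilic proteins induced by cold, was at 92.3 FPKM in roots and 127 FPKM in shoots in ethylene, against 67.3 and 799 FPKM in air. The shoot in air stood out there, and its shoot bias was erased. *LTI30*, a dehydrin, had root bias made, at 655 and 90.4 FPKM in ethylene and 325 and 169.6 FPKM in air. *LEA7* was at 302 and 69.3 FPKM in ethylene and 159 and 180.3 FPKM in air. *DREB2A*, a transcription factor of the drought and heat response, was lower in ethylene in both tissues, at 6.61 and 3.22 FPKM, against 23.0 and 49.7 FPKM in air. *LTI65* and *LTI78*, known also as RD29B and RD29A, lost their shoot bias, with shifts of 2.06 and 1.41, and 1.77 and 1.53 in *cbp20*.

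Suberin genes widened their root bias through lower shoot levels. Suberin is the fatty polymer that seals endodermis and periderm. *CYP86A1*, which makes its omega-hydroxy acids, was at 49.3 FPKM in roots and 1.84 FPKM in shoots in ethylene, against 71.9 and 10.1 FPKM in air. *RWP1*, the transferase that adds ferulate, was at 146 and 24.3 FPKM in ethylene and 265 and 111 FPKM in air. Both were lower in both tissues, more so in shoots, and *CYP86B1* and the joined row of *FAR4*, *FAR5* and *FAR8* did likewise. In all 4 of 8 rows shifted 2-fold toward the root, against 10.1% of all rows. In *cbp20* 0 did, against 8.38% of all rows, and these 4 rows had shifts between 0.042 and 0.77. *FAR1* stood apart as shoot-biased, at 7.91 and 569.6 FPKM in ethylene and 7.42 and 265 FPKM in air.

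The Casparian strip genes of the same cell layer leaned the other way in Col-0. Of 9 rows 3 were root-biased in ethylene and 6 in air, against 19.5% and 15.3% of all rows. A shift below 0 was found for 8, against 6882 of 15319 rows in all. *ESB1* alone of them was past 2-fold, against 5.88% of all rows past 2-fold toward the shoot. *ESB1*, a dirigent protein that positions the lignin of the strip, was at 396 FPKM in roots and 278 FPKM in shoots in ethylene, against 562 and 169 FPKM in air, and its root bias was erased. Its shift in *cbp20* was -0.46. The lean of the list was not found in *cbp20*, where the median shift was -0.016, beside -0.37 in Col-0. In *cbp20* 0 of 9 rows were past 2-fold toward the shoot, against 5.08% of all rows, too few rows to read from. *CASP1*, which marks the strip's membrane domain, kept its bias at 1.69 in ethylene and 1.76 in air.

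Indole glucosinolate and camalexin genes, which make defence compounds from tryptophan, all shifted above 0, 5 of 10 rows past 2-fold, against 10.1% of all rows past 2-fold toward the root and 8437 of 15319 above 0. In *cbp20* 0 were past 2-fold toward the root and 2 toward the shoot, against 8.38% and 5.08% of all rows. *CYP81F4*, a modifier of indole glucosinolates, had 199 FPKM in roots and 27.5 FPKM in shoots in ethylene, against 243 and 92.2 FPKM in air, with shifts of 1.44 in Col-0 and 0.95 in *cbp20*. *MYB34*, an activator of the pathway, was at 36.2 and 24.5 FPKM in ethylene and 59.2 and 106 FPKM in air. *CYP79B2* and *CYP83B1*, which act early in the pathway, shifted by 0.94 and 0.78 in Col-0 and by 0.94 and 0.72 in *cbp20*. *CYP81F2* and the joined row of *CYP71A12* and *CYP71A13* had root bias made in Col-0 and shifts of -0.62 and -2.26 in *cbp20*. *PAD3*, the last enzyme of camalexin synthesis, was at 9.20 FPKM in roots and 4.07 FPKM in shoots in ethylene, against 6.53 and 10.7 FPKM in air, with a shift of -2.60 in *cbp20*.

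Ribosomal protein genes shifted toward the shoot, mostly by less than 2-fold. They were taken as genes whose RefSeq product is a ribosomal protein, organellar ones included, after their values had been seen. Of 265 described rows 229 had a shift below 0, 35 of them past 2-fold, while 2 were past 2-fold toward the root. Over all rows 6882 of 15319 had a shift below 0, 5.88% were past 2-fold toward the shoot and 10.1% toward the root. Shoot bias was found for 61 in ethylene and 33 in air, beside 19.0% and 18.6% of all rows, so that the count in ethylene was near the share of all rows and that in air below it. The median bias was -0.62 in ethylene and -0.044 in air, as against values close to 0 over all rows. The tissues moved apart from both sides, with a median log2 change in ethylene of -0.28 in roots and 0.31 in shoots. The median shift was -0.56 in Col-0 and -0.57 in *cbp20*.

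Shoot bias was made for 19 of the 265 ribosomal protein rows, against 1.81% of all rows. AT5G60670, of the L11 family, was at 66.0 FPKM in roots and 208 FPKM in shoots in ethylene, against 109 and 94.9 FPKM in air. AT2G20450, which encodes L14, was at 43.1 and 115 FPKM in ethylene and 78.3 and 57.0 FPKM in air. AT5G57290, an acidic protein of the large subunit, was at 74.8 and 205 FPKM in ethylene and 174 and 186 FPKM in air. In each the order of the tissues in ethylene was shoot above root, and both levels in air lay between them. Ribosomal protein genes come in close copies, so reads may be split among them.

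**Figure D3:**
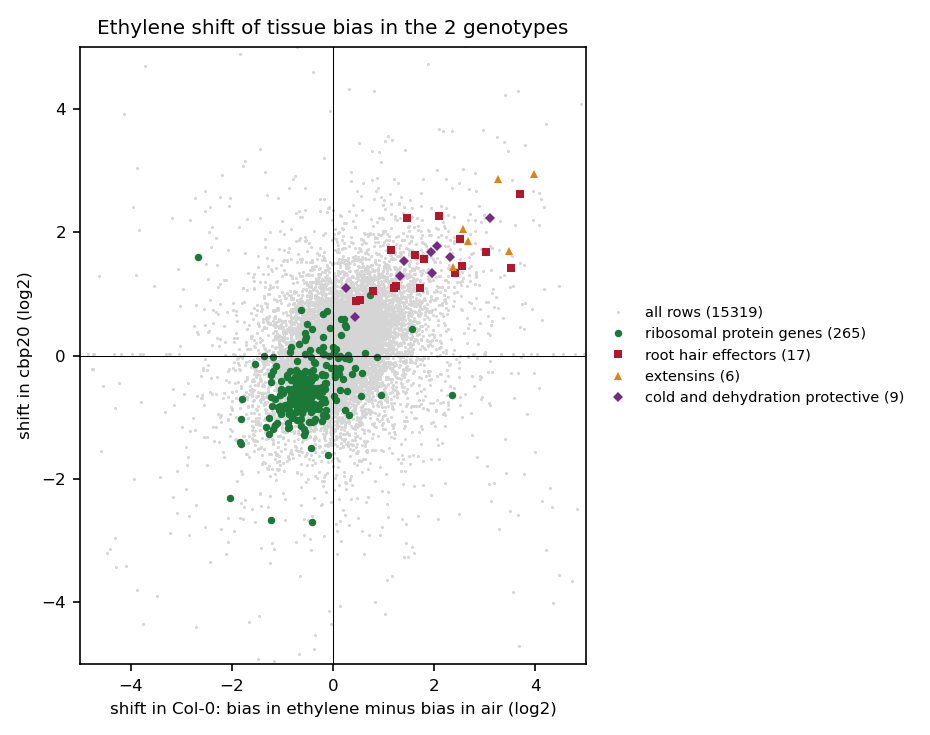
Shift of tissue bias by ethylene in Col-0 (horizontal axis) and cbp20 (vertical axis), as log2, for all described rows in grey and 4 gene groups in colour, with 80 rows beyond the axes not drawn. Ribosomal protein genes lie mostly at lower left, with medians of -0.56 and -0.57, and the root hair, extensin and cold genes at upper right.

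Cell wall proteins were among the other genes with shoot bias made. *GH9B13*, of the glycosyl hydrolase 9 endoglucanases, was at 15.2 FPKM in roots and 215 FPKM in shoots in ethylene, against 83.8 and 123 FPKM in air, and its shift of -3.17 was -2.30 in *cbp20*. *EXPA12* was at 3.36 and 45.3 FPKM in ethylene and 0.595 and 2.07 FPKM in air. It passed the 5 FPKM minimum only through shoots in ethylene. Its place in the class depends on the 1 FPKM added, as the air levels themselves lay more than 2-fold apart toward the shoot. *XTH19* and *EXPA4* were lower in roots in ethylene (10.6 and 9.05 FPKM, against 28.4 and 39.1 FPKM in air), with shifts of -1.58 and -1.35. Of 18 alpha-expansins 7 shifted 2-fold toward the root and 6 toward the shoot, and of 26 XTH rows 8 shifted toward the root and 3 toward the shoot, against 10.1% and 5.88% of all rows. In *cbp20* 2 alpha-expansins shifted toward the root and 3 toward the shoot. For the XTH rows the *cbp20* counts were 6 and 3, against 8.38% and 5.08% of all rows.

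Other shoot biases were made from either side. *ACS5*, an ACC synthase at the step that limits ethylene synthesis, was at 2.52 FPKM in roots and 22.6 FPKM in shoots in ethylene, against 10.2 and 8.80 FPKM in air, and the *cbp20* shift was -2.15. *HD2C*, a plant-specific histone deacetylase, moved in shoots alone, at 44.7 and 183 FPKM in ethylene and 50.3 and 44.0 FPKM in air. *GRP7*, a clock-controlled RNA-binding protein, was at 365 and 1637 FPKM in ethylene and 799 and 1248 FPKM in air. *YUC9*, of auxin synthesis, and the joined row of *IAA14*, an auxin repressor, also fell in the class, with *cbp20* shifts of -0.23 and -0.21. The largest repeated shifts by the naming rule were in little-characterized rows. AT5G25800, a ribonuclease H-like protein, was at 4.53 and 241 FPKM in ethylene and 3.15 and 2.69 FPKM in air, and at 19.8 FPKM in *cbp20* shoots in ethylene. The precursor row *MIR158a* was at 258 FPKM in ethylene-treated shoots and under 1 FPKM in the other Col-0 groups, against 35.1 FPKM in ethylene-treated shoots and 18.1 FPKM in air-kept shoots of *cbp20*. AT5G57567 and AT1G08005 were listed at 21.5 and 20.8 FPKM in ethylene-treated shoots and at 0 FPKM in the other 3 Col-0 groups. The joined row of AT5G27889 and AT5G27890 was at 0.191 and 118 FPKM in ethylene and 45.3 and 34.2 FPKM in air, and AT1G53542, AT5G41870 and AT5G57310 were the others named.

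Genes with shoot bias widened included *EFE* and *HLS1*. *EFE*, the ACC oxidase known as ACO4, was at 189 FPKM in roots and 1289 FPKM in shoots in ethylene, against 57.5 and 128 FPKM in air. *HLS1*, needed for the apical hook, was at 1.92 and 34.5 FPKM in ethylene and 2.41 and 6.26 FPKM in air. Both were high in shoots in ethylene, and the shifts of -1.61 and -2.49 were -1.20 and -1.77 in *cbp20*. *ABCG1*, a transporter, was at 2.24 and 57.7 FPKM in ethylene and 7.48 and 19.96 FPKM in air. *IAA20*, *XTH31*, *EXPA9*, *EXPA11*, *EXPA8*, *GH9B1*, *GASA4* and the leaf polarity factor *AS1* were in the same class, with Col-0 shifts between -1.83 and -1.02, and *GH9B12* was at 49.3 FPKM in shoots in ethylene, against 4.46 FPKM in air.

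*ARGOS* and *ARL*, membrane proteins that lower ethylene sensitivity, lost their shoot bias in ethylene. *ARGOS* was at 278 FPKM in roots and 311 FPKM in shoots in ethylene, against 7.15 and 44.7 FPKM in air. *ARL* was at 168 and 278 FPKM in ethylene and 7.51 and 44.5 FPKM in air. Both were higher in ethylene in both tissues, and the root, which was low in air, came within 2-fold of the shoot. The shifts were 2.35 and 1.72 in Col-0 and 2.71 and 1.21 in *cbp20*. *ERS2*, an ethylene receptor, followed with 19.6 and 31.9 FPKM in ethylene and 2.16 and 11.5 FPKM in air.

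As in all rows, most genes of the ethylene pathway shifted by less than 2-fold, with a median shift of 0.16, beside 0.070 over all rows. Of 22 rows 12 were at least 1.5-fold higher in ethylene in roots and 15 in shoots, against 10.9% and 11.2% of all rows. A 2-fold shift toward the root was found for 4 and toward the shoot for 1, against 10.1% and 5.88% of all rows. The F-box protein *EBF2*, which removes EIN3, was at 177 and 178 FPKM in ethylene and 70.3 and 71.8 FPKM in air. *CTR1* was at 54.7 and 77.8 FPKM in ethylene and 20.9 and 24.9 FPKM in air. *ERF1*, a transcription factor downstream of EIN3, was called widened toward the root, at 21.6 and 3.64 FPKM in ethylene and 2.02 and 0.455 FPKM in air. It is 1 of the 4 rows shifted toward the root and passed the 5 FPKM minimum only through roots in ethylene. Its air levels were so low that the 2-fold shift depends on the 1 FPKM added. Of the ethylene synthesis genes *ACS6* had its shoot bias erased (shift 1.61, *cbp20* 0.49).

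Further genes with shoot bias erased are given by example. *AZI1*, a lipid-transfer protein of systemic immunity, was at 1076 FPKM in roots and 1219 FPKM in shoots in ethylene, against 132 and 364 FPKM in air. *GTR1*, a glucosinolate transporter, was at 22.5 and 16.1 FPKM in ethylene and 17.2 and 42.4 FPKM in air. *STH*, a B-box protein of light signalling, was low except in shoots in air, at 1.23 and 0.736 FPKM in ethylene and 0.358 and 9.24 FPKM in air. *HEMA1*, at the entry to chlorophyll synthesis, had a bias of -0.88 in ethylene and -2.08 in air. *YUC8*, *TCH4*, *XTR6*, *XTH20*, *EXPA2* and *GH9B15* were also in the class, with *cbp20* shifts between -1.34 and 0.74. The naming rule added *GTA2*, AT5G04790, AT3G51644, AT1G12672, AT3G57700 and *MIR159b*, all under 20 FPKM in every Col-0 group. Shoot bias was narrowed for the cuticle genes *PDF1* and *CER1*, the chlorophyll gene *CH1* and the flavonoid gene *TT5*, of which *PDF1* was at 8.94 and 150.3 FPKM in ethylene and 12.9 and 535 FPKM in air. *EXPA5*, *EXPA6*, *EXPA10* and *EXPA16* narrowed too, with *cbp20* shifts between -0.81 and 0.71, and the row of CAB-type genes *LHCB2.2* and *LHCB2.1* shifted by 1.93 in Col-0 and -0.26 in *cbp20*.

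Root bias was seldom erased, and of the classes of made, erased and reversed bias it was repeated least often in *cbp20*. *CLE6*, a signalling peptide gene, was at 41.8 FPKM in roots and 61.9 FPKM in shoots in ethylene, against 24.1 and 4.496 FPKM in air, with a *cbp20* shift of -1.21. Its neighbour in the family, *CLE5*, was narrowed by the shoot as well, at 153 and 62.4 FPKM in ethylene and 99.0 and 4.64 FPKM in air. *RPL10B*, a ribosomal protein, was at 11.1 and 16.1 FPKM in ethylene and 24.99 and 9.01 FPKM in air. *SBP3*, a selenium-binding protein, and *PRA1.H*, of vesicle traffic, shifted by -1.46 and -1.76. AT1G33970, a P-loop NTPase-type protein, was at 98.8 and 180.3 FPKM in ethylene and 148 and 36.4 FPKM in air. Among narrowed genes *XTH21* and *EXPA17* were lower in roots, at 7.03 and 6.65 FPKM in ethylene, against 40.2 and 48.2 FPKM in air, and the cytokinin synthesis gene *IPT5* shifted by -1.73. *YUC3* had its root bias erased with a *cbp20* shift of -0.39. The rule also named AT3G14470, AT5G53360, AT1G35242, AT1G50760, *MIR159a* and *MIR848*, of which the last 4 were listed at 0 FPKM in all Col-0 groups but roots in air.

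Reversed rows were few and mixed in kind. *CAM8*, a calmodulin, was at 44.3 FPKM in roots and 18.6 FPKM in shoots in ethylene, against 3.43 and 12.3 FPKM in air. *MTP11*, a manganese transporter, was at 34.1 and 16.2 FPKM in ethylene and 22.9 and 55.0 FPKM in air. Both went to the root, with *cbp20* shifts of 2.96 and 1.19. *CTF7*, an acetyltransferase of sister chromatid cohesion, was at 26.1 and 4.06 FPKM in ethylene and 11.5 and 28.1 FPKM in air, and *IQD20*, a calmodulin-binding protein, shifted by 2.96 in Col-0 and 3.65 in *cbp20*. The auxin repressor gene *IAA30* and *XTH11* were reversed as well, at 6.87 and 9.09 FPKM in ethylene-treated roots. By the naming rule *NDL3* had a large shift, at 6.74 FPKM in roots and 620.1 FPKM in shoots in ethylene and 433 and 57.2 FPKM in air, whereas *cbp20* was root-biased in both gases, with 42.5 and 9.005 FPKM in ethylene and 139 and 9.88 FPKM in air. The rule also named AT1G24300, AT5G65609, AT1G51402, AT2G03822, AT1G63950, *SNOR111* and *RSU1*, of which all but AT1G24300 had a Col-0 group listed at 0 FPKM. Of the 74 reversed rows 25 had a Col-0 group listed at 0 FPKM.

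**Figure D4:**
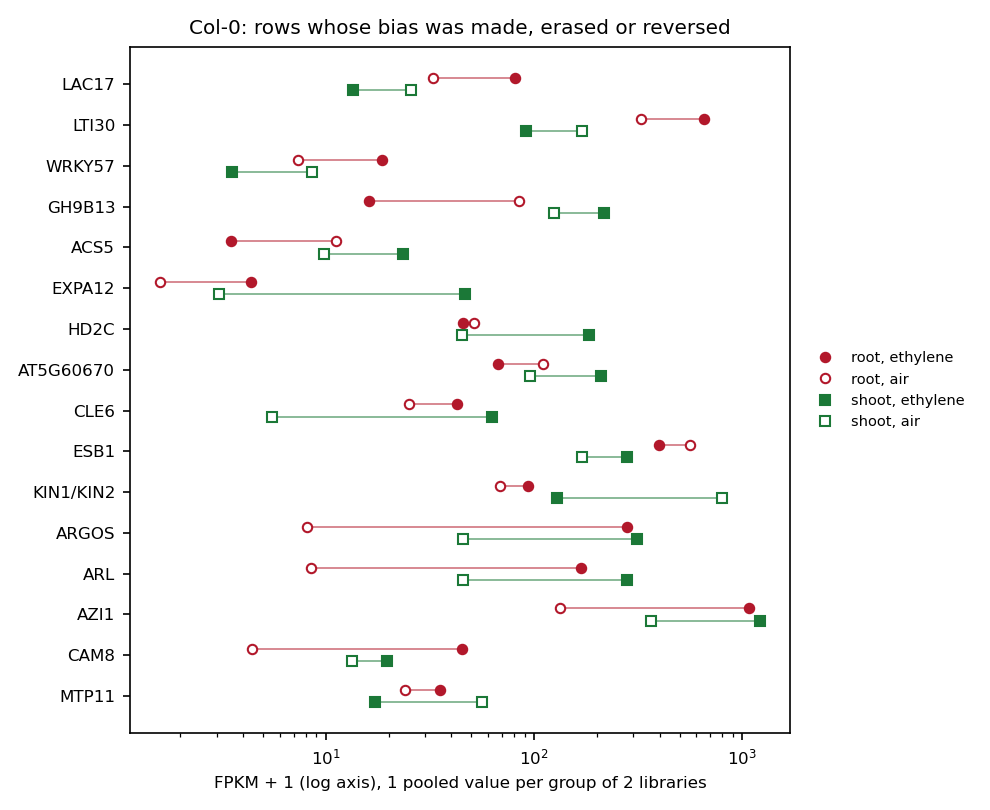
FPKM + 1 on a log axis for 16 rows of the made, erased and reversed classes in Col-0, with roots as circles and shoots as squares, filled in ethylene and open in air, 1 pooled value of 2 libraries each. ARGOS and ARL show open symbols far apart and filled symbols close together, and GH9B13 and HD2C the opposite.

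The root nutrient uptake genes and the aquaporins had a similar median bias in both gases in Col-0. None of the 10 nutrient uptake rows entered a class or shifted 2-fold, against 10.1% of all rows toward the root and 5.88% toward the shoot. Few would be expected to in a list of this size. Their median bias was 3.12 in ethylene and 2.93 in air. *TIP2;3*, a tonoplast channel, was lower in both tissues, at 1613 FPKM in roots and 144 FPKM in shoots in ethylene, against 3082 and 247 FPKM in air, and its bias moved by -0.13. Of 31 aquaporin rows 0 shifted 2-fold toward the root and 0 toward the shoot in Col-0, against 10.1% and 5.88% of all rows. In *cbp20* 4 and 1 did, against 8.38% and 5.08% of all rows. Other lists had members going both ways. Of 8 auxin synthesis rows 2 shifted 2-fold toward the root and 2 toward the shoot, against 10.1% and 5.88% of all rows, with a median of -0.28. The early auxin response and shoot apex lists had medians of -0.027 and 0.16. The cuticle list had 4 of 13 rows and the chlorophyll list 2 of 9 past 2-fold toward the root, against 10.1% of all rows. Their median shifts were 0.26 and 0.45 in Col-0 and -0.31 and 0.14 in *cbp20*, with opposite signs for the cuticle list. The flavonoid median was 0.59 in Col-0 and 0.45 in *cbp20*. *GPAT6*, a cutin gene, was the cuticle list's member with root bias widened (shift 1.38, *cbp20* -0.32), and *GASA3* had root bias made (shift 1.68, *cbp20* 0.42).

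**Figure D5:**
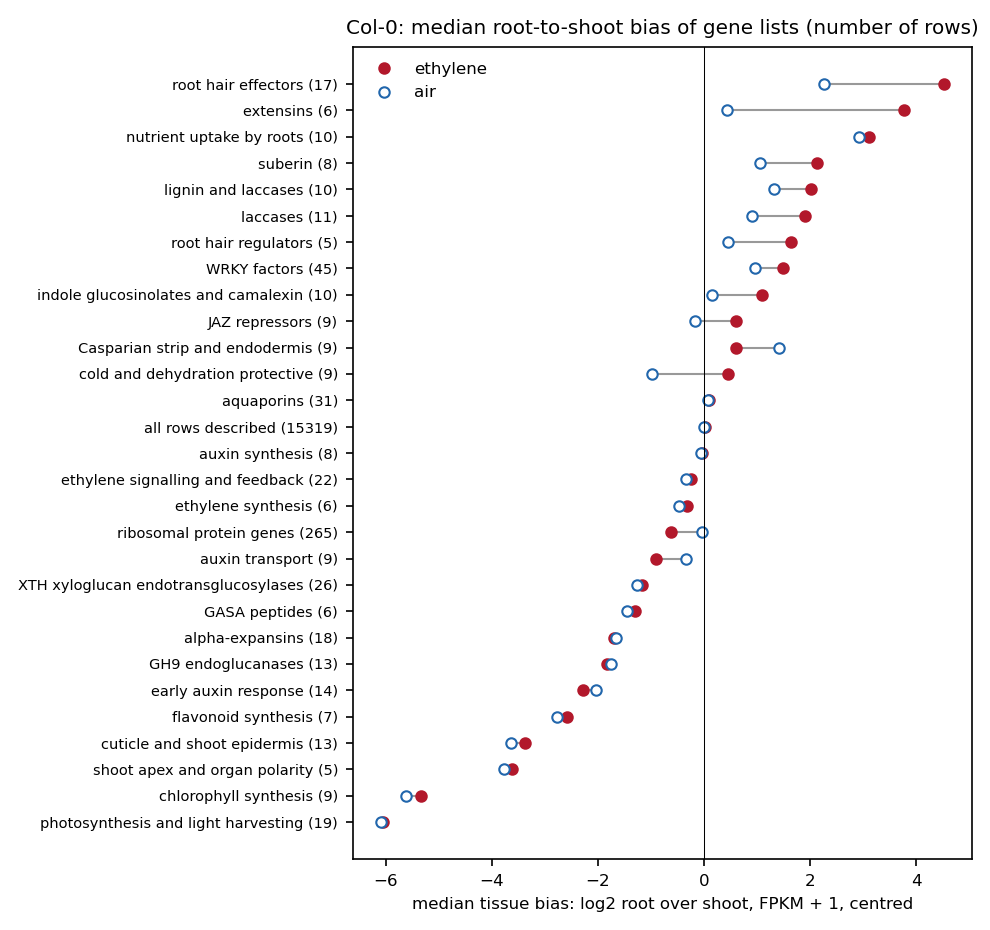
Median tissue bias of gene lists and families with at least 5 described rows in Col-0, as centred log2 of root over shoot FPKM + 1, with filled points for ethylene and open points for air and the number of rows in brackets. The medians of root hair effectors and of the described extensins lie further right in ethylene than in air, and that of ribosomal protein genes further left.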

How the data were processed

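Poly(A) RNA of 16 libraries, 2 per group of genotype, tissue and gas, was sequenced. Per the labels and the methods, the authors mapped reads with TopHat2 2.0.9 (TAIR10) and ran Cuffdiff 2.2.1 for ethylene against air, separately for each tissue and genotype. The authors deposited 4 tables of FPKM, with 1 value per group pooled over its libraries. No source used here gives library depth, and thus no counting interval could be set. The tables also hold the log2 fold change and p-value of ethylene against air, which were not used.

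Of 35814 rows per table, 1729 without a gene name, 2745 whose name stands at several loci and 100 with a far-out value were left out. A value was far out at 100 FPKM or more and 100 times the median of the row's 8 groups. Rows were described from 5 FPKM in any Col-0 group, and 1138 of them join several genes that Cuffdiff did not separate. Bias was taken on log2(FPKM + 1), which understates the bias of low rows, and centred per gas. Where a row is low in 1 gas only, this can enlarge its shift and place it in a made or widened class. The shifts of *ERF1* and *RSL4* and the class of *EXPA12* depend on it. Changes within a tissue were log2 ratios of FPKM + 1, ethylene over air. Alternatives varied the pseudocount, the minimum, the fold, the centring and the rows kept.

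Genes named were up to 8 with the largest shift in each of the classes made, erased and reversed whose *cbp20* shift had the same sign and was at least 2-fold, up to 6 with the largest bias toward each tissue, members of the lists that fell in a class, the list members with the highest FPKM, and up to 5 whose shift was not seen in *cbp20*. Further genes were picked with their values in view, ribosomal protein genes are named by example, and some list members are not reported here. The genes and lists were chosen with earlier results of these data known. Names were matched to RefSeq for 29360 of 33989, and promoter windows and their coordinates are those of RefSeq on TAIR10.1, whose gene ends differ from those of the tables for most rows. Python 3.11.15, pandas 2.3.3 and matplotlib 3.10.9 were used. The calling of made, erased and reversed bias was checked only on simulated rows with biases far from 2-fold and little noise. That check does not show how rows near 2-fold or at low level are called, and widened and narrowed bias were not simulated.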

Additional observations from a re-analysis of the deposited data

Results flagged for a closer look

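The rows below moved in opposite ways, or in Col-0 alone, between the genotypes, and the difference between the genotypes was not tested, since each value is a single pooled one. AT1G74456, a noncoding row, had a shift of -10.89 in Col-0 and 3.49 in *cbp20*, with 223 FPKM in Col-0 roots and 2812 FPKM in Col-0 shoots in ethylene, against 152 FPKM in roots and almost 0 FPKM in shoots in air. AT2G05765, also noncoding, had shifts of -9.43 in Col-0 and 0.016 in *cbp20*, and its Col-0 value depends on the pseudocount, since it was listed at 0 FPKM in roots and 452 FPKM in shoots in ethylene, against 2273 and 1471 FPKM in air. *MYB10*, a transcription factor gene, shifted by -9.33 in Col-0 and 4.03 in *cbp20*, and was at 0.562 and 184 FPKM in Col-0 roots and shoots in ethylene, against 124 and 21.6 FPKM in air. AT4G10510, a subtilase, shifted by 7.95 in Col-0 and -0.027 in *cbp20*. AT5G03285, a noncoding row, shifted by 7.05 in Col-0 and 0.0097 in *cbp20*. They are named by rule for having the largest Col-0 shifts within a class among rows whose *cbp20* shift was near 0 or of opposite sign.

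The camalexin genes stood apart from the rest of their list in *cbp20*. The joined row of *CYP71A12* and *CYP71A13* shifted by 1.93 in Col-0 and -2.26 in *cbp20*, and *PAD3* by 1.67 in Col-0 and -2.60 in *cbp20*. *PAD3* was at 1.35 FPKM in roots and 1.60 FPKM in shoots of *cbp20* in ethylene, against 22.0 and 3.13 FPKM in air.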

How the results depend on the processing

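No paired analysis was possible because each table holds 1 pooled value per group, and for the same reason no library could be left out. Counts are given in the order root bias made, shoot bias made, root bias erased, shoot bias erased and reversed. A pseudocount of 5 gave 278, 177, 83, 159 and 25 rows, and 0.1 gave 113 reversed rows. A minimum of 1 FPKM gave 713, 465, 282 and 494 for the first 4 classes, and no minimum 713, 465, 282 and 499. A minimum of 20 FPKM gave 224, 132, 56, 91 and 34, with 1931 root-biased and 1854 shoot-biased rows in ethylene, as fewer rows entered. A 1.5-fold threshold gave 787, 676, 376, 533 and 213. With 4-fold for bias there were 185 rows with shoot bias made, 171 with shoot bias erased and 14 reversed, and 1381 root-biased and 1492 shoot-biased rows in ethylene. Keeping gene names that stand at several loci gave 250 reversed rows, where rows sharing name and locus were paired in table order. Chosen after seeing the data, leaving out rows with a Col-0 group at 0 FPKM gave 49 reversed rows, and requiring a shift of 2-fold the same way in *cbp20* gave 136, 75, 29, 79 and 27.

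Median shifts were recomputed for 11 of the lists and families, under all alternatives but the other folds and the requirement in *cbp20*, and none of these changed sign. Those of the other lists, such as the near-zero medians of early auxin response and aquaporins, were not recomputed. The median of the described extensins, at 2.97, ranged between 2.01 and 3.57, that of suberin was 0.59 with a pseudocount of 5, that of the cold genes was at least 1.48, and that of the indole list was 0.78 with a minimum of 20 FPKM.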
